A study of Mus musculus with 12 samples.

Results

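The genes described here are the enzymes, isoforms, carriers and close regulators of glycolysis, from glucose uptake to lactate export. They were chosen as a list of 34 genes by name, and each was read from the array probe set named for it alone that had the highest mean over the 12 arrays. Of the 34 genes 31 were measured, of 18194 genes on the array in all. The other 3, Gpi1, Pfkfb1 and Eno1, were not named by any single-gene probe set in the annotation used here and have no value below. The arrays cover 4 populations of blood cells sorted from C57Bl/6 mice of 10 to 12 weeks of age, with no treatment or engineered allele given in the labels. Haematopoietic stem cells (HSC, 3 arrays) came from bone marrow as lineage-negative, cKit+, Sca1+, CD150+ and Flt3- cells. Multipotent progenitors (MPP, 3 arrays) came from bone marrow as lineage-negative, cKit+, Sca1+, CD150- and Flt3+ cells. Progenitors of megakaryocytes and red cells (PreMegE, 4 arrays) came from bone marrow as lineage-negative, cKit+, Sca1-, CD150+, CD105- and CD41- cells. The labels number the fourth PreMegE array both 4 and 3, so that arrays 3 and 4 may be 1 replicate; with their mean taken as 1 sample the called members of PreMegE against HSC and MPP numbered 18 and 22, as with 4 arrays. Mature CD4+ T cells (2 arrays) came from spleen as CD4+, CD8-, B220- and Nk1.1- cells. The PreMegE and CD4+ T cell arrays were taken over from earlier studies of the same group, so that population and study cannot be told apart in any comparison with HSC or MPP. The labels do not say whether replicates came from separate animals, and the p-values measure only the spread between these arrays.

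Glycolysis splits glucose into pyruvate in the cytosol. Hexokinase, phosphofructokinase and pyruvate kinase catalyse its irreversible steps, and most steps have several isoforms that tissues use in different proportions. Lactate dehydrogenase turns pyruvate into lactate, while pyruvate dehydrogenase kinases keep pyruvate out of mitochondria by switching off the pyruvate dehydrogenase complex. Haematopoietic stem cells are known for a reliance on glycolysis at low oxygen, in which the transcription factor HIF-1, with Hif1a as its regulated subunit, raises the genes of several glycolytic enzymes.

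Glycolytic genes are textbook targets of HIF-1, which binds short DNA elements with the core letters ACGTG or GCGTG, and the sequences in front of 6 member genes show where such letters lie. RefSeq windows on the mouse assembly GRCm38.p6, from 250 bases before to 50 bases after a transcription start, were on hand for 33 of the 34 genes (53 windows); Slc2a3 is named only. Read on both strands, ACGTG or GCGTG occurred in at least 1 window of 28 of these 33 genes (84.8%), against 12628 of 27025 genes with a window on the whole assembly (46.7%), and in 38 of the 53 windows (71.7%), against 43.8% of all 32851 windows. The letters CACGTG, which contain ACGTG on both strands and therefore count as 2 overlapping core matches, occurred in windows of 7 of the 33 genes (21.2%), against 8.1% of all genes, and in 7 of the 53 windows (13.2%), against 7.2% of all windows. No core letters were found in the windows of Bpgm, Eno2, Gpi1, Pklr and Tpi1. A match of this kind is a description of the letters and not a binding site. The 200 bases before the start, given 5′ to 3′ in the direction of the gene with the core letters of either strand in capitals, are shown for Pkm (chr9:59657027-59657226, plus strand), Ldhb (chr6:142507958-142508157, minus strand), Pgk1 (chrX:106186900-106187099, plus strand) and Pgam1 (chr19:41911671-41911870, plus strand), which were lower in PreMegE, for Ldha (chr7:46845604-46845803, plus strand), which was not, and for Pklr (chr3:89135942-89136141, plus strand), which was higher there. The direction of Pklr depends on the probe set, as given below. Of a gene with several windows the one with the most core letters is shown.
Pkm: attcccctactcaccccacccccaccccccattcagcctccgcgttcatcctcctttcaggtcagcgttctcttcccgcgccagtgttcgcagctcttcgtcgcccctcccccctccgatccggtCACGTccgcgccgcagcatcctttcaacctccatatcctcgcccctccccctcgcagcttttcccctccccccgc
Ldhb: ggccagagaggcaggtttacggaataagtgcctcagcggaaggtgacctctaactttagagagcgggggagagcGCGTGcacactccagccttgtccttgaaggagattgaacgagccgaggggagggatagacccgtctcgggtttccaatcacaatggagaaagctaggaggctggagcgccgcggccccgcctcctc
Pgk1: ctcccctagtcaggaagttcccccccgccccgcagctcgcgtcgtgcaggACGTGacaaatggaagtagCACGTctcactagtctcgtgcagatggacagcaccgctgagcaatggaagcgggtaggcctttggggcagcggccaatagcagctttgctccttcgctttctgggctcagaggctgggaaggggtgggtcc
Pgam1: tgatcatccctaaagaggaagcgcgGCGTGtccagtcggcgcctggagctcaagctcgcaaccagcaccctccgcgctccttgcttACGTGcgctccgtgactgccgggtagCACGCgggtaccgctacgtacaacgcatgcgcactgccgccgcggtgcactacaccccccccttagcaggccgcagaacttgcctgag
Ldha: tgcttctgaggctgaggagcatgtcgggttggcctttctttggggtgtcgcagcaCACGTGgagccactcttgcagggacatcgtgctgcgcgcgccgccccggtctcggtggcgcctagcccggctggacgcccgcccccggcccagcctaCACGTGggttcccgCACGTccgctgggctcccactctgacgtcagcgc
Pklr: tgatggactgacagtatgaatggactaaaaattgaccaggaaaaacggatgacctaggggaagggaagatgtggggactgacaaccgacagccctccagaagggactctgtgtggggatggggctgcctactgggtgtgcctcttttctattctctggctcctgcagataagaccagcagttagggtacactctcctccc
The Ldha stretch held 5 core matches, including CACGTG at 2 places, Pgam1 held 3, Pgk1 held 2, Pkm and Ldhb held 1 each and Pklr held 0. Of the members called lower in PreMegE than in HSC, 13 of the 14 with a window held core letters, and of the members not called in that comparison 11 of 13 did. Since 28 of the 33 genes held the letters, these counts cannot tell whether the letters go with the differences.

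All values are log2 intensities, and differences between populations are log2 differences with their standard error (SE) from limma, a linear model fitted over all genes and all 12 arrays. A gene is called where its Benjamini-Hochberg adjusted p over the 18194 genes is under 0.05. Levels are compared only between populations for the same probe set, since probe sets differ in brightness for reasons other than RNA amount. In RNA from sorted populations, fewer cells of a type and less RNA per cell cannot be told apart. The arrays were alike in brightness, with median intensities of 14.4 to 15.6, and arrays of a population correlated at 0.984 to 0.994. They were less alike in 3′ over 5′ signal: the log2 excess of the 3′ over the 5′ control probe set of Actb was 2.35 to 2.77 in HSC and MPP, 3.49 to 4.65 in PreMegE and 0.99 to 1.13 in CD4+ T cells, and that of Gapdh was 3.62 to 4.14, 3.12 to 4.39 and 2.55 to 2.66. Whether RNA integrity differed was not tested. The sort labels were checked against marker genes. All 7 measured T cell markers were called higher in the CD4+ T cells than in each other population, the 8 measured PreMegE markers had their highest summed level in PreMegE (13.36 to 13.9), the 9 measured HSC markers in HSC (12.71 to 12.92) and the 5 measured MPP markers in MPP (13.19 to 13.25). Single markers could go the other way. Of the PreMegE markers 5 were called higher and 1 lower in PreMegE than in HSC, and Itga2b read 8.14 to 8.82 against 10.45 to 10.63. Of the MPP markers 2 were called higher and 3 lower in CD4+ T cells than in MPP. Of the HSC markers 7, 8 and 8 were called lower and 0 higher in MPP, PreMegE and CD4+ T cells than in HSC. Markers of other cells were read too. Of 9 measured B cell markers 4 were called higher and 1 lower in CD4+ T cells than in HSC. Among them Ighm, the immunoglobulin heavy chain, read 12.28 and 12.49 in the T cells, 9.94 to 10.73 in MPP, 9.04 on HSC replicate 2, 9.35 on PreMegE replicate 1 and 3.57 to 5.04 on the other HSC and PreMegE arrays. Ms4a1 (6.45 and 6.76 against 2.66 to 3.42 in HSC), Cd79b (7.12 and 7.14 against 5.54 to 5.87) and Cd79a (4.83 and 4.66 against 3.79 to 3.92) were also higher in the T cells. The B cell factor Pax5 was lower in the T cells (3.46 and 3.37) than on any HSC array (3.88 to 4.30). Of 8 macrophage markers 3 were called higher and 1 lower in the T cells than in HSC. Their summed level (12.36 and 12.39 against 9.35 to 10.11) was nearly all Ctss (12.19 and 12.24). Csf1r (8.29 and 8.25 against 6.15 to 7.77) and Cd68 (5.14 and 5.11 against 3.6 to 4.29) were higher too. Lyz2 was lower (6.57 on both arrays against 7.44 to 8.12). The T cell arrays had the red cell markers at a summed level of 8.01 and 10.03 (5.04 to 7.55 in HSC, 4 of 7 measured), with 2 called higher and 0 lower than in HSC. HSC replicates 2 and 3 stood apart from the other 10 arrays in sex-linked genes: Xist, of the inactive X chromosome, read 2.45 and 2.59 on them and 10.91 to 12.44 elsewhere, and the Y-linked Eif2s3y 7.46 and 8.47 against 2.31 to 2.71. Without both, HSC rests on 1 array, assumed to vary like the other populations. Members called then numbered 15 for PreMegE against HSC (13 lower and 2 higher), 15 for CD4+ T cells against HSC (9 lower and 6 higher) and 3 for MPP against HSC (Hk3, Pgam1 and Slc2a1, all higher). HSC replicate 2 had the mature neutrophil markers at 12.15 (9.14 and 9.69 in the other HSC arrays, 10 of 11 measured), and PreMegE replicate 1 had them at 11.39 (9.41 to 10.15 in the other PreMegE arrays). Without PreMegE replicate 1, 17 members were called between PreMegE and HSC (15 lower) and 19 between PreMegE and MPP (16 lower).

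PreMegE stood lowest for much of the pathway. Of the 31 measured members 18 were called between PreMegE and HSC, 15 of them lower (48.4%) and 3 higher (9.68%), where 28.9% of all genes were called, 17.0% lower and 11.9% higher. Between PreMegE and MPP 22 members were called, 18 lower (58.1%) and 4 higher (12.9%), against 33.0% of all genes, 19.5% lower and 13.5% higher. Bright genes are called more often, and 25 of the 31 members lie above the median gene: among those, 15 of 25 were lower than in HSC (60.0%) against 26.7% of the 9097 genes above the median, and 18 of 25 lower than in MPP (72.0%) against 31.4%. The median member differed by -0.52 from HSC and by -0.63 from MPP, where the median of all genes differed by -0.015 and 0.022. Called below each of the other 3 populations were 7 members, Aldoc, Ldhb, Pdk1, Pfkp, Pgam1, Pkm and Slc2a1 (22.6% of the members, 4.90% of all genes). Called above all 3 was 1 member, Pklr (3.23% of the members, 3.85% of all genes). The calls of Aldoc against CD4+ T cells and of Pfkp against MPP rested on single arrays, as given below. Calls of Aldoc, Pfkp, Pdk1 and Pklr also depended on the probe set. Beside these differences, all 10 of a list of immediate early genes, which respond to cell handling, were called lower in PreMegE than in MPP and 9 of 10 lower than in HSC, and the excess of 3′ over 5′ signal of Actb was largest in PreMegE. Macrophage markers (6 of 8) and platelet markers (6 of 6) were also called lower there than in HSC, and 6 of 10 neutrophil markers were called higher and 2 lower than in MPP. The part of any of these in the glycolytic differences was not tested.

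MPP had the fewest differences from HSC. Between them 5 members were called, all higher in MPP (16.1% of the members against 6.38% of all genes called higher, 4.93% lower and 11.3% in all). The 5 were the hexokinases Hk2 and Hk3, the mutase Pgam1, the pyruvate kinase Pkm and Hif1a. No member was called lower in MPP by limma on the values as deposited, and 3 were at an unadjusted p under 0.05, Ldha, Pfkfb2 and Pdk4. Ldha was called lower after quantile (-0.45, adjusted p = 0.0384) or cyclic loess normalisation (-0.44, 0.0431), where the counts were 4 higher and 1 lower and 3 higher and 1 lower. Pfkfb2 was called lower (-0.65) with only HSC and MPP in the fit (0.0233), without PreMegE replicate 3 (0.037) or with PreMegE replicates 3 and 4 averaged (0.0383). Among genes above the median 20.0% of the members were called higher, against 10.6% of genes. The count rested on single arrays: it was 2 without HSC replicate 1, HSC replicate 2, MPP replicate 2 or MPP replicate 3, and 3 without MPP replicate 1, with Hk3 and Pgam1 called in every one of those fits and Hk2, Pkm and Hif1a each lost in some. Of the immediate early genes 7 of 10 and of the macrophage markers 4 of 8 were called higher in MPP than in HSC, and all 6 platelet markers lower; their part in these differences was not tested. MPP had the highest mean of the 4 populations for 13 of the 31 members (41.9%, against 20.3% of all genes). It was called above all 3 others for Hk2, Hk3 and Pgam1 (9.68% of the members, 2.67% of all genes). HSC was called highest or lowest of the 4 populations for 0 members by limma (1.75% and 1.08% of all genes), and for 0 at an unadjusted p under 0.05.

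CD4+ T cells differed from the bone marrow populations in both directions, by isoform. Against HSC 20 members were called, 7 higher (22.6%) and 13 lower (41.9%), where 37.8% of all genes were called, 17.0% higher and 20.8% lower. Against MPP 6 were higher and 12 lower (35.5% of all genes called, 15.5% higher and 20.0% lower). Against PreMegE 12 were higher and 7 lower (33.1% of all genes called, 16.3% higher and 16.8% lower). Among genes above the median the shares of the background were 58.8%, 56.0% and 53.8%, and those of the members 72.0%, 72.0% and 68.0%. Called above all 3 others were Aldoa, Bpgm, Eno3, Hif1a, Ldha and Pfkp (19.4% of the members, 9.73% of all genes), and called below all 3 were Hk2, Pfkm, Slc16a1 and Tpi1 (12.9%, 10.5% of all genes). Counting only differences of at least 2-fold, 14, 12 and 17 members were called against HSC, MPP and PreMegE (23.2%, 22.1% and 19.4% of all genes), beside 10 for PreMegE against HSC (11.5% of all genes), 11 for PreMegE against MPP (14.5%) and 1 for MPP against HSC (4.70%). Of the immediate early genes, 5 of 10 were called lower and 1 higher in CD4+ T cells than in HSC, 10 lower than in MPP and 8 higher than in PreMegE, and their part in these differences was not tested. The median member differed from HSC by -0.028 in CD4+ T cells and by 0.149 in MPP (-0.06 and -0.027 over all genes). With 2 arrays the T cell group takes its spread from the other populations.

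**Figure D1:**
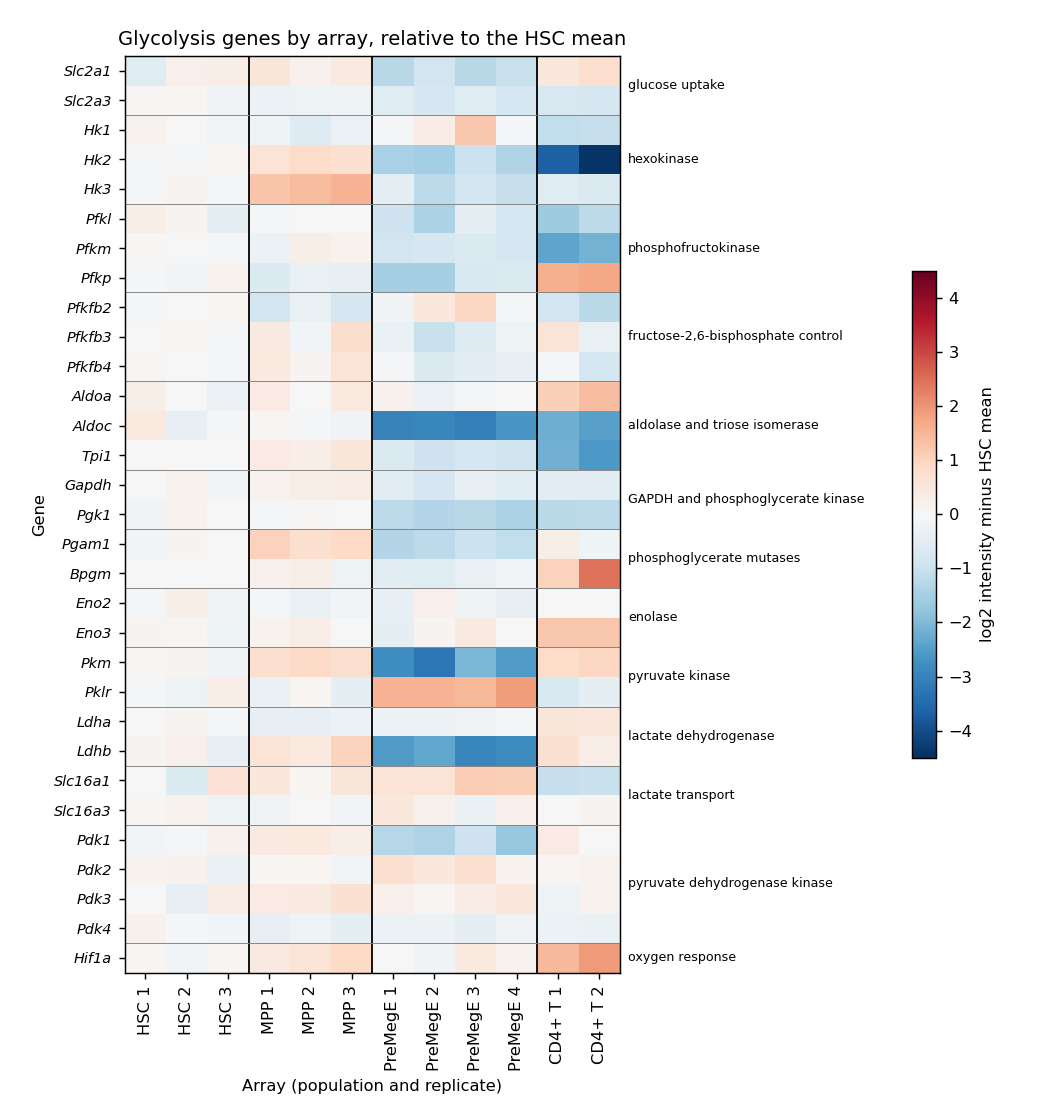
Log2 intensity of the 31 measured members (rows, grouped by step) on each of the 12 arrays (columns, grouped by population), as the difference from the mean of the 3 HSC arrays; blue is lower and red higher, on a scale shared by all genes. The PreMegE columns are blue for 4 of 4 arrays at Aldoc, Pgk1, Pgam1, Pkm, Ldhb and Pdk1 and red at Pklr, and the CD4+ T cell columns are darkest at Hk2 and red at Pfkp, Bpgm and Hif1a.

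Glucose enters blood cells mainly through the carriers of the Slc2a family. Slc2a1, the widespread carrier GLUT1, read 6.84, 7.62 and 7.71 on the HSC arrays, 7.93, 7.57 and 7.80 in MPP, 6.13, 6.54, 6.14 and 6.38 in PreMegE, and 7.86 and 8.15 in CD4+ T cells. All PreMegE arrays lay below all others, by -1.09 ± 0.20 from HSC (adjusted p = 6e-04) and -1.47 ± 0.20 from MPP (3.09e-05). The other 2 probe sets of the gene also read lower in PreMegE than in HSC, with differences down to -1.60. HSC replicate 1 was low: with it as the lone HSC array the PreMegE difference was -0.54 (adjusted p = 0.134), and that of MPP rose to 0.92 (0.048). Slc2a3, the high-affinity carrier GLUT3, ran from 8.95 to 9.85 over the 12 arrays and was lower in PreMegE and CD4+ T cells than in HSC (-0.66 ± 0.13 and -0.74 ± 0.16). Its probe set can match several transcripts, and on a specific probe set the differences were -0.19 and -0.04, neither called (adjusted p = 0.375 and 0.888).

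Hexokinase traps glucose in the cell as glucose 6-phosphate, and its 3 isoforms moved apart. Hk2, the inducible isoform bound to mitochondria, read 7.33, 7.32 and 7.45 in HSC and 7.99, 8.21 and 8.07 in MPP. It read 5.90, 5.83, 6.38 and 6.02 in PreMegE and 3.68 and 2.95 in CD4+ T cells. The 4 populations did not overlap, and Hk2 was the only member called in all 6 comparisons. It was 16.6-fold lower in CD4+ T cells than in HSC (-4.05 ± 0.22, adjusted p = 5.69e-10), 27.3-fold lower than in MPP (-4.77 ± 0.22) and 6.59-fold lower than in PreMegE (-2.72 ± 0.20), at a level in the T cells next to the lower quartile of all genes (3.27). The rise from HSC to MPP was 0.72 ± 0.19 (0.0236) and was not called without HSC replicate 1 (0.0685), HSC replicate 2 (0.0726) or any 1 of the MPP arrays (0.0514 to 0.0938). Hk3, a hexokinase of myeloid cells, read 5.90, 6.08 and 5.91 in HSC, 7.20, 7.38 and 7.54 in MPP, 5.51, 4.79, 5.12 and 4.92 in PreMegE, and 5.40 and 5.33 in CD4+ T cells. Its level in MPP stood clear of all other arrays, 2.66-fold above HSC (1.41 ± 0.18, adjusted p = 7.92e-05) and 4.88-fold above PreMegE, and its other probe set gave 2.13 for the first of these. Hk1, the constitutive isoform, was at 9.78 to 10.04 in HSC, 9.33 to 9.70 in MPP, 8.78 and 8.86 in CD4+ T cells, and 9.79, 10.24, 11.12 and 9.84 in PreMegE. CD4+ T cells were lowest, called against HSC (-1.07 ± 0.30, adjusted p = 0.00927) and PreMegE (-1.42 ± 0.28). Against HSC the call was lost without T cell replicate 1 (0.0544), and the gene's other probe set gave -0.40 (0.743). PreMegE exceeded MPP by 0.70 ± 0.25 (0.0429), and without PreMegE replicate 3, the array at 11.12, by 0.41 (0.0657). This call was also lost without any 1 MPP array (0.0658 to 0.163), HSC replicate 1 (0.0519) or 2 (0.0503) or PreMegE replicate 2 (0.0782), and the gene's other probe set gave 0.03 (0.98).

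Phosphofructokinase commits sugar to glycolysis and is built from liver (Pfkl), muscle (Pfkm) and platelet (Pfkp) type subunits. All 3 were lower in PreMegE than in HSC, by -0.90 ± 0.22 (Pfkl, adjusted p = 0.00477), -0.74 ± 0.15 (Pfkm, 0.00133) and -1.06 ± 0.21 (Pfkp, 0.00121). Pfkp read 7.73, 7.63 and 7.94 in HSC, 7.14, 7.44 and 7.41 in MPP, 6.28, 6.29, 7.09 and 7.15 in PreMegE, and 9.37 and 9.51 in CD4+ T cells. PreMegE replicates 1 and 2 read lower for Pfkp than replicates 3 and 4, which reached the lowest MPP array. The call against MPP (-0.63 ± 0.21, 0.0323) was lost without MPP replicate 2 or 3 or PreMegE replicate 1 or 2 (0.0961 to 0.112). On the next brightest probe set, a dim one (mean 3.68), PreMegE exceeded HSC by 0.27 (adjusted p = 0.586). CD4+ T cells had the highest Pfkp, 3.18-fold above HSC (1.67 ± 0.25, adjusted p = 6.23e-05) and 6.64-fold above PreMegE, with 2.40 against HSC on the next brightest probe set. Pfkm read 8.15, 8.10 and 8.04 in HSC, 7.81, 8.36 and 8.24 in MPP, 7.26, 7.33, 7.49 and 7.32 in PreMegE, and 5.73 and 5.98 in CD4+ T cells. The T cells thus had the lowest Pfkm, 4.71-fold below HSC (-2.24 ± 0.18, adjusted p = 6.31e-08) and 2.82-fold below PreMegE. Pfkl was at 9.05 to 9.71 in HSC, 9.39 to 9.46 in MPP, 8.0 to 9.0 in PreMegE and 7.85 and 8.24 in CD4+ T cells, which were lower than HSC (-1.39 ± 0.26, adjusted p = 0.000382). The dimmest of its 3 probe sets gave 1.04 for the same difference.

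The Pfkfb enzymes make and break fructose 2,6-bisphosphate, the strongest activator of phosphofructokinase. Pfkfb2 was at 5.10 to 5.25 in HSC, 4.32 to 4.83 in MPP, 5.02 to 6.09 in PreMegE and 3.98 and 4.35 in CD4+ T cells. It was called higher in PreMegE than in MPP (0.93 ± 0.23, adjusted p = 0.0047) and lower in CD4+ T cells than in HSC (-1.01 ± 0.27, 0.00753), and on the next brightest probe set these were 0.28 (0.298) and -0.05 (0.902). Pfkfb3 and Pfkfb4, isoforms induced by low oxygen, were called lower in PreMegE than in MPP (-0.88 ± 0.25 and -0.78 ± 0.19). For Pfkfb3 the other probe set gave the opposite sign, 0.69 (adjusted p = 0.0173), and no direction can be given.

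Aldolase cuts the 6-carbon sugar into the triose phosphates that Tpi1, triose phosphate isomerase, interconverts. Aldoc, the aldolase known best from brain, read 7.62, 6.83 and 7.11 in HSC, 7.22, 7.11 and 7.02 in MPP, 4.17, 4.25, 4.10 and 4.56 in PreMegE, and 4.98 and 4.74 in CD4+ T cells. HSC and MPP overlapped, and every PreMegE and T cell array lay below every one of theirs. PreMegE was 7.55-fold below HSC (-2.92 ± 0.18, adjusted p = 1.49e-08) and CD4+ T cells 5.02-fold (-2.33 ± 0.22, 3.51e-07). The gene's other probe set is close to the dimmest on the array (mean 2.86) and gave -0.34 (adjusted p = 0.216) and -0.62. CD4+ T cells exceeded PreMegE in Aldoc by 0.59 (0.0371), and the other probe set gave -0.28 (0.361). This call was lost without MPP replicate 2 or PreMegE replicate 1, 2 or 3 (0.0503 to 0.0718). Without T cell replicate 1 or 2 the difference was 0.47 or 0.71. Aldoa, the general aldolase, was at 9.55 to 10.26 in the 3 bone marrow populations, which overlapped, and at 10.90 and 11.19 in CD4+ T cells (1.23 ± 0.20 above HSC, adjusted p = 0.000133). Of its 5 probe sets 4 were higher in T cells than in HSC. Tpi1 read 10.60, 10.58 and 10.55 in HSC, 10.95, 10.86 and 11.13 in MPP, 9.92, 9.65, 9.80 and 9.66 in PreMegE, and 8.41 and 8.0 in CD4+ T cells. No population overlapped another. CD4+ T cells were 5.17-fold below HSC (-2.37 ± 0.17, adjusted p = 1.74e-08), with all 3 probe sets between -2.37 and -2.64, and PreMegE 1.76-fold below (-0.82 ± 0.14, 0.000378).

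Gapdh and Pgk1 carry out the oxidation of triose phosphate and the first synthesis of ATP in the pathway. Pgk1 read 12.20, 12.49 and 12.34 in HSC, 12.29, 12.41 and 12.35 in MPP, 11.17, 11.02, 11.11 and 10.90 in PreMegE, and 11.12 and 11.16 in CD4+ T cells. HSC and MPP did not separate, nor did PreMegE and CD4+ T cells, and the former lay above the latter on every array. The difference from HSC was -1.29 ± 0.13 in PreMegE (adjusted p = 2.27e-06) and -1.20 ± 0.16 in CD4+ T cells (1.2e-05), and all 3 probe sets of the gene were lower in each. On the next brightest probe set CD4+ T cells exceeded PreMegE by 0.81 (0.000807). Gapdh, often taken as a constant reference gene, was at 12.23 to 12.51 in HSC, 12.52 to 12.71 in MPP, 11.60 to 12.01 in PreMegE and 11.87 on both T cell arrays. It was called lower in PreMegE than in HSC and MPP (-0.54 ± 0.14 and -0.80 ± 0.14), the former not without HSC replicates 2 and 3 (-0.54, 0.0917). It was measured by a control probe set at the 3′ end, and the probe sets at the middle and 5′ end gave -1.38 and -0.19 for PreMegE against HSC. In CD4+ T cells the 3 probe sets ran from -0.55 to 0.92 against HSC, so that no direction can be given there.

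Pgam1, the phosphoglycerate mutase of most tissues, read 8.67, 8.93 and 8.82 in HSC, 9.84, 9.52 and 9.71 in MPP, 7.5, 7.64, 7.84 and 7.71 in PreMegE, and 9.07 and 8.61 in CD4+ T cells. MPP lay above and PreMegE below all other arrays. The difference from HSC was 0.88 ± 0.16 in MPP (adjusted p = 0.00199) and -1.14 ± 0.15 in PreMegE (3.69e-05). Bpgm, which makes the 2,3-bisphosphoglycerate of red cells, was at 7.02 to 7.82 in the bone marrow populations and at 8.61 and 9.99 in CD4+ T cells (1.74 ± 0.29 above HSC, adjusted p = 0.000162). The red cell gene Alas2 was at 7.42 and 9.35 and Slc4a1 at 6.13 and 8.54 on the same T cell arrays, both lower on replicate 1, as was Bpgm. Of 7 listed red cell genes 4 were measured, and the others of these were low in every population. The globin gene Hba-a1 was at 2.90 and 3.18 in the T cells (2.79 to 2.98 in HSC) and Epb42 at 3.04 and 3.17 (2.97 to 3.46 in HSC). Over all arrays Hba-a1 ran from 2.79 to 3.29 and Epb42 from 2.67 to 3.54. Hba-a1 lay below the lower quartile of all genes throughout, so its reading does not tell whether globin RNA was present. The part of red cell RNA in Bpgm was not tested. Bpgm in PreMegE was -0.37 ± 0.25 from HSC (0.314) on the probe set used, and -1.69 on the next brightest, which was called (0.00261). Of the enolases, Eno3, the muscle type, was at 4.70 to 5.48 in the bone marrow populations and at 6.29 and 6.31 in CD4+ T cells (1.21 ± 0.21 above HSC, adjusted p = 0.000193). Eno2, the neuronal type, lay below the lower quartile of all genes in every population and was not called in any comparison.

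Pyruvate kinase makes pyruvate and ATP in the last step. Pkm encodes the muscle-type enzymes of most dividing and non-dividing cells, and Pklr those of liver and red cells. Pkm read 9.27, 9.33 and 9.05 in HSC, 9.94, 10.08 and 9.94 in MPP, 6.42, 5.96, 7.14 and 6.67 in PreMegE, and 10.04 and 10.14 in CD4+ T cells. PreMegE stood apart, 6.35-fold below HSC (-2.67 ± 0.21, adjusted p = 1.95e-07), 10.9-fold below MPP (-3.44 ± 0.21, 6.02e-09) and 11.6-fold below CD4+ T cells. MPP lay above HSC by 0.77 ± 0.23 (0.0376), a call lost without any 1 of the HSC or MPP arrays (0.0669 to 0.121). Pkm had 1 probe set, which does not separate its M1 and M2 splice forms here. Pklr read 4.48, 4.30 and 4.84 in HSC, 4.25, 4.63 and 4.08 in MPP, 6.12, 6.10, 6.02 and 6.43 in PreMegE, and 3.84 and 4.11 in CD4+ T cells. PreMegE was 3.09-fold above HSC (1.63 ± 0.18, adjusted p = 4.75e-06), without overlap. The other 2 probe sets of Pklr did not show this, at -0.58 (0.0485) on the next brightest and 0.41 on the dimmest, so the direction depends on the probe set.

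**Figure D2:**
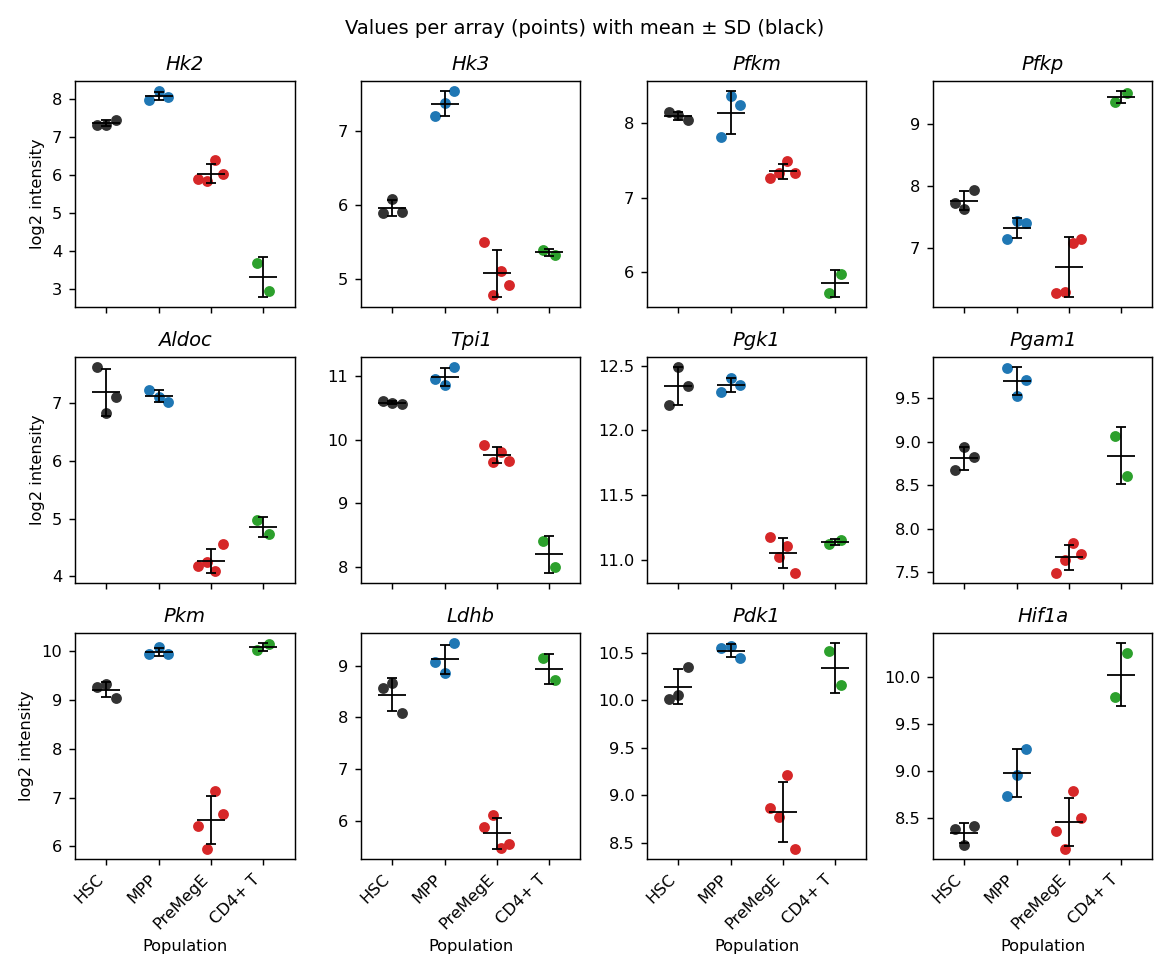
Log2 intensity of 12 members on each array (points, coloured by population) with the population mean and SD in black; each panel has its own axis. Pkm, Ldhb and Aldoc lie lowest in PreMegE with no overlap with HSC or MPP, Hk2, Pfkm and Tpi1 lie lowest in the CD4+ T cells, and Pfkp and Hif1a lie highest there.

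Lactate dehydrogenase is a tetramer of Ldha and Ldhb subunits, the former favouring lactate formation and the latter lactate use. Ldhb read 8.57, 8.67 and 8.09 in HSC, 9.07, 8.86 and 9.43 in MPP, 5.89, 6.11, 5.49 and 5.56 in PreMegE, and 9.14 and 8.73 in CD4+ T cells. All PreMegE arrays lay below all others. PreMegE was 6.40-fold below HSC (-2.68 ± 0.20, adjusted p = 1.17e-07) and 10.2-fold below MPP, and all 4 probe sets of the gene had the same sign, from -2.68 to -4.48 against HSC. Ldha was nearly level in the bone marrow populations, at 10.50 to 11.00, with differences of -0.33 ± 0.13 (MPP against HSC, adjusted p = 0.138) and -0.19 ± 0.13 (PreMegE against HSC, 0.323). CD4+ T cells, at 11.44 and 11.38, were higher than each of them (0.53 ± 0.15 above HSC, 0.0102, and 0.0621 without T cell replicate 1). Slc16a1, the lactate carrier MCT1, read 8.07, 7.48 and 8.77 in HSC, 8.58, 8.18 and 8.64 in MPP, 8.71, 8.70, 9.25 and 9.16 in PreMegE, and 7.06 and 7.09 in CD4+ T cells. PreMegE exceeded HSC (0.85 ± 0.25, adjusted p = 0.0158), with overlapping arrays, and the call was lost without HSC replicate 1 (0.0516) or 2 (0.104); its other probe set, a dim one, gave -0.02. CD4+ T cells were 2.04-fold below HSC (-1.03 ± 0.29, 0.0109) and 3.68-fold below PreMegE, the former lost without T cell replicate 1 (0.0545) or 2 (0.0502). On the other probe set these differences were -0.31 (0.156) and -0.29 (0.173), neither called. Slc16a3, the exporter MCT4, lay below the lower quartile of all genes in every population and was not called in any comparison.

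Pyruvate dehydrogenase kinase 1 (Pdk1), a HIF-1 target, read 10.02, 10.06 and 10.35 in HSC, 10.55, 10.58 and 10.45 in MPP, 8.87, 8.77, 9.21 and 8.44 in PreMegE, and 10.52 and 10.16 in CD4+ T cells. PreMegE lay below all other arrays, 2.5-fold under HSC (-1.32 ± 0.18, adjusted p = 3.5e-05) and 3.25-fold under MPP. All 4 Pdk1 probe sets were lower in PreMegE than in HSC, the other 3 with differences of -0.80 to -0.08. The next brightest of them gave -0.43, which was not called (adjusted p = 0.102). Between CD4+ T cells and HSC the probe set used gave 0.20 ± 0.21 (adjusted p = 0.529) and the other 3 gave 1.90 to 2.08, the next brightest with an adjusted p of 1.08e-05. Pdk2 was higher in PreMegE relative to HSC (0.51 ± 0.17, 0.0335), with overlapping arrays, and not without HSC replicate 3 (0.173), HSC replicates 2 and 3 together (0.347) or PreMegE replicate 1 (0.0867), 2 (0.0557) or 3 (0.074). Pdk3, at 6.95 to 8.01, and Pdk4, below the lower quartile of all genes in every population, were not called in any comparison (unadjusted p under 0.05 in 2 and 1 of the 6). Hif1a read 8.38, 8.21 and 8.42 in HSC, 8.73, 8.96 and 9.24 in MPP, 8.36, 8.17, 8.79 and 8.50 in PreMegE, and 9.79 and 10.27 in CD4+ T cells. The T cells lay above all others, 3.23-fold over HSC (1.69 ± 0.21, adjusted p = 9.23e-06), with 3 of the gene's 4 probe sets higher. MPP exceeded HSC by 0.64 ± 0.19 (0.0409), which was lost without any 1 HSC array (0.0628 to 0.138) or without MPP replicate 2 (0.1) or 3 (0.198) or PreMegE replicate 4 (0.0544). The gene's 4 probe sets ran from -0.19 to 0.64 in this comparison, positive for 2 of them, the one used included, and their mean gave 0.23 (0.359). PreMegE and HSC overlapped (0.12 ± 0.18, 0.695).

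**Figure D3:**
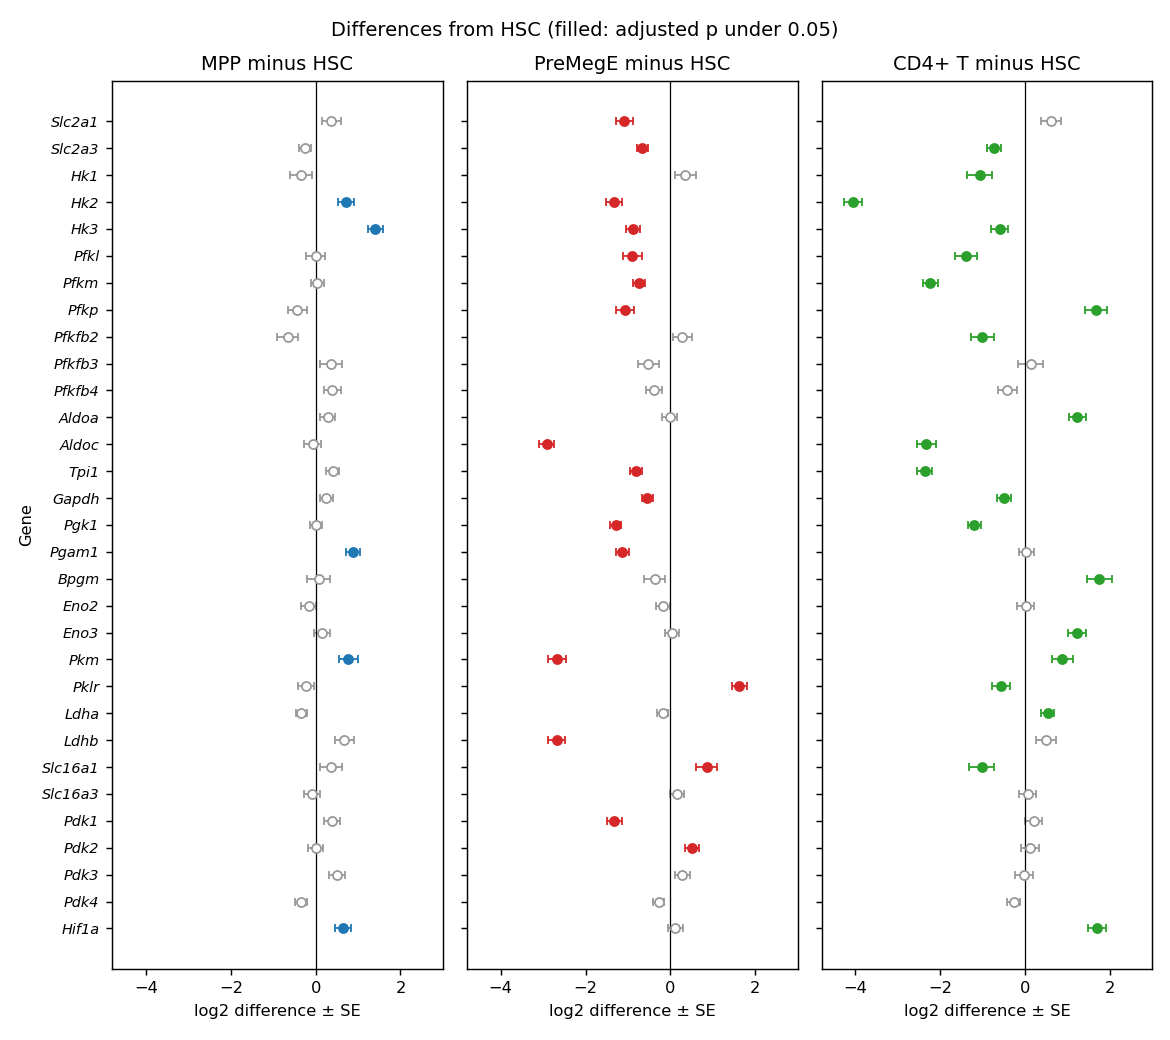
Log2 difference from HSC (points) with its SE (bars) for the 31 measured members in MPP, PreMegE and CD4+ T cells; filled points have an adjusted p under 0.05 and the vertical line marks no difference. MPP has 5 filled points, all to the right, PreMegE 15 to the left and 3 to the right, and CD4+ T cells 13 to the left and 7 to the right; the 3 panels share the HSC arrays.

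Pairs of isoforms shifted against each other, taken as the log2 difference between both probe sets on the same array and set against its mean in HSC, with no test. This measures unequal change of the isoforms, not which is more abundant. Ldha over Ldhb rose by 2.49 in PreMegE (4.93 ± 0.37, SD, n = 4, against 2.44 ± 0.23 in HSC, n = 3), shifted by -1.01 in MPP, and was 0.04 from HSC in CD4+ T cells. Pkm over Pklr shifted by -4.29 in PreMegE (0.38 ± 0.53 against 4.68 ± 0.43), with the limit on Pklr given above. Aldoa over Aldoc rose by 2.90 in PreMegE and 3.56 in CD4+ T cells, through Aldoc in the former and through both genes in the latter. Hk1 over Hk2 rose by 1.69 in PreMegE and 2.98 in CD4+ T cells and shifted by -1.06 in MPP. Pfkm over Pfkp shifted by -3.90 in CD4+ T cells and by 0.48 and 0.32 in MPP and PreMegE. Slc2a1 over Slc2a3 shifted by 1.35 in CD4+ T cells, with the limit on the Slc2a3 probe set given above. Slc2a1 alone was not called between CD4+ T cells and HSC. Arrays of PreMegE and HSC did not overlap in the balances of Ldha with Ldhb, Pkm with Pklr, Aldoa with Aldoc, and Hk1 with Hk2.

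**Figure D4:**
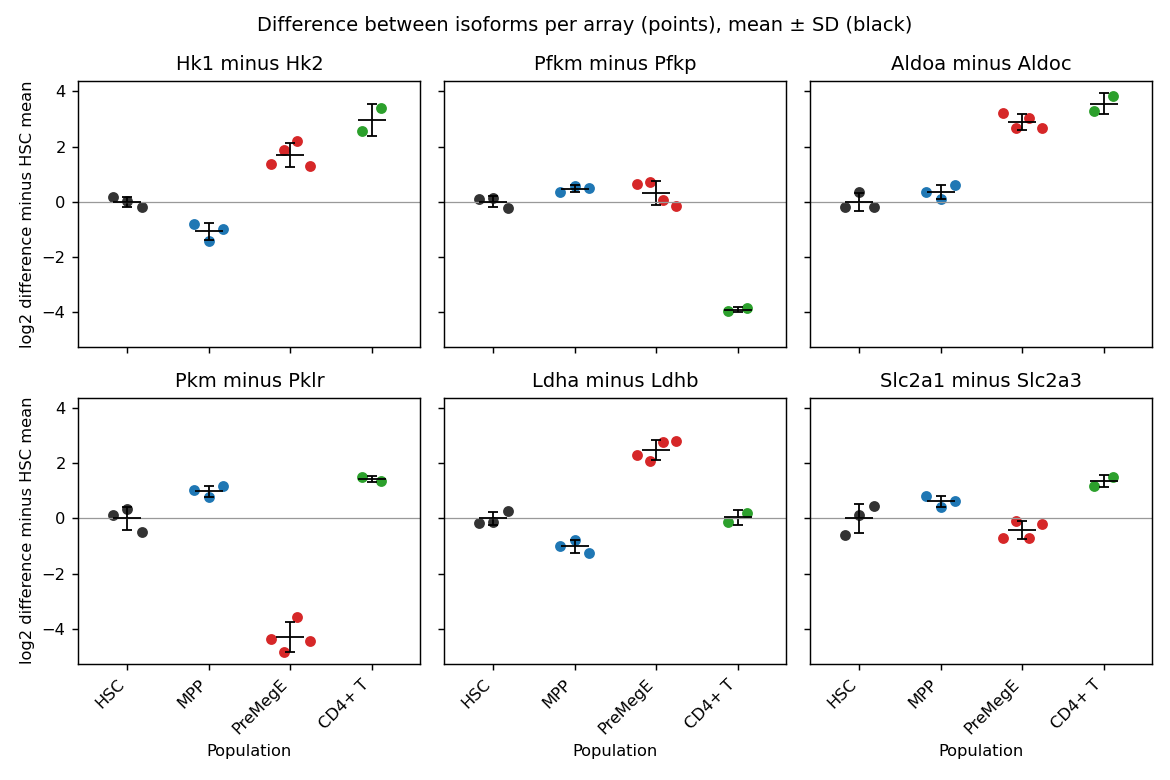
Log2 difference between 2 isoforms of a step on each array (points) minus its mean over the HSC arrays, with the population mean and SD in black, for 6 pairs; the grey line at 0 is the HSC mean. PreMegE is up for Ldha minus Ldhb, Aldoa minus Aldoc and Hk1 minus Hk2 and down for Pkm minus Pklr, and CD4+ T cells are furthest down for Pfkm minus Pfkp.

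The genes around glycolysis are given as counts called against HSC, beside the 28.9% (PreMegE), 11.3% (MPP) and 37.8% (CD4+ T cells) of all genes called, or 47.5%, 18.4% and 58.8% of genes above the median level. Of 30 measured further genes of glucose and lactate handling, 2 were higher and 6 lower in PreMegE than in HSC (median -0.08), and 3 higher and 7 lower in CD4+ T cells, shares of 26.7% and 33.3% that lie near or under those of all genes. Fbp1, which runs the phosphofructokinase step backwards, had means of 6.65 ± 0.22 in HSC and 7.98 ± 0.08 in MPP but 3.87 ± 0.31 in PreMegE and 3.16 ± 0.16 in the T cells (SD), and the lactate and pyruvate carrier Slc16a7 differed by -1.56 ± 0.17 in PreMegE from HSC. Pck2, of mitochondrial phosphoenolpyruvate synthesis, was lower in CD4+ T cells (-2.31 ± 0.17 from HSC), and Tigar, which lowers fructose 2,6-bisphosphate, was higher (2.28 ± 0.20, but -0.18 on the next brightest probe set). Of 10 pentose phosphate genes 4 were higher and 2 lower in PreMegE than in HSC (60.0%, median 0.26). The ribose phosphate synthetases went apart there, Prps1 by 0.97 ± 0.15 and Prps2 by -1.09 ± 0.16, while the epimerase Rpe was higher (0.55 ± 0.17) and the transketolase Tkt lower (-0.61 ± 0.14).

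On the mitochondrial side, of 11 genes of pyruvate import and the pyruvate dehydrogenase complex 5 were higher and 1 lower in PreMegE than in HSC (54.5%, median 0.43), and 1 was higher and 1 lower in MPP (18.2%). Mpc1, of the pyruvate carrier, was higher than in HSC in all 3 other populations (by 0.77 ± 0.24 in PreMegE, 1.08 ± 0.26 in MPP and 1.97 ± 0.29 in CD4+ T cells). Pdp2, a phosphatase that reactivates the complex, and Lipt1, which attaches its lipoyl group, were higher in PreMegE than in HSC (0.80 ± 0.25 and 0.82 ± 0.19), and the subunit gene Pdhx was lower (-1.10 ± 0.24). Of 19 genes of the tricarboxylic acid cycle 5 were higher and 3 lower in PreMegE than in HSC (42.1%, median 0.08), among them Aco1 (1.25 ± 0.27), Sdhb (0.66 ± 0.15) and Suclg2 (0.56 ± 0.13) higher and Idh2 (-0.59 ± 0.14) lower. In CD4+ T cells 2 of the 19 were higher and 4 lower (31.6%, under the share of all genes), with Sdhb 1.64 ± 0.18 above HSC.

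Of 18 regulators around HIF-1, 5 were higher and 9 lower in PreMegE than in HSC (77.8%, median -0.29), 3 and 5 in MPP (44.4%), and 8 and 6 in CD4+ T cells (77.8%). Egln3, a prolyl hydroxylase that marks Hif1a protein for destruction and is itself a HIF-1 target, rose from 5.31 ± 0.20 in HSC to 7.84 ± 0.32 in MPP and was lower in PreMegE (3.50 ± 0.11), with 4.94 ± 0.17 in the T cells. Siah2, a ubiquitin ligase for such hydroxylases, had the same order in the bone marrow (7.82 ± 0.40, 9.13 ± 0.05 and 6.14 ± 0.22). Meis1, reported to activate Hif1a in stem cells, was highest in HSC (11.39 ± 0.19) and lower in MPP (-1.05 ± 0.20), PreMegE (-1.62 ± 0.19) and CD4+ T cells (-8.11 ± 0.22). Epas1, the HIF-2 subunit, was higher in CD4+ T cells than in HSC (2.43 ± 0.21) and PreMegE (3.39 ± 0.20). On its next brightest probe set CD4+ T cells were not above PreMegE, so the difference depends on the probe set. Of 15 HIF-1 targets outside glycolysis, 3 were higher and 4 lower in PreMegE than in HSC (46.7%, median -0.38), 2 and 2 in MPP (26.7%), and 4 and 5 in CD4+ T cells (60.0%), near the shares of genes above the median level in PreMegE and CD4+ T cells. The growth factor Vegfa was 2.48 ± 0.21 higher in MPP than in HSC, the stress gene Ndrg1 was lower there (-0.87 ± 0.15, but 0.14 on its most specific probe set), and the collagen hydroxylase P4ha1 was lower in PreMegE (-1.47 ± 0.18) and higher in CD4+ T cells (2.12 ± 0.22). Of 20 further regulators of glucose use 3 were higher and 6 lower in PreMegE than in HSC (45%, median -0.12). Myc, an activator of glycolytic genes, was higher in PreMegE than in HSC and MPP (0.87 ± 0.16 and 1.44 ± 0.16) and lower in CD4+ T cells (-1.17 ± 0.19 from HSC). The glucose-responsive arrestin Arrdc4 was lower in MPP (-1.60 ± 0.26, but 0.27 on the next brightest probe set). The FOXO factors differed in CD4+ T cells, with Foxo1 above HSC (2.34 ± 0.19) and Foxo3 below it (-1.93 ± 0.16). Cell cycle genes, given for comparison, were lower in CD4+ T cells than in HSC for 9 of 10 measured and in PreMegE for 5 of 10; their part in the glycolytic differences was not tested.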

How the data were processed

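Total RNA of the 12 sorted samples was hybridised to Affymetrix mouse arrays with 45101 probe sets. The authors deposited RMA-processed intensity values on a linear scale, per the labels and the submitters' processing notes; the RMA version is not given in the sources used here, and the array files name no genome build. RMA corrects background, normalises between arrays and summarises probes, so the spread of dim probe sets is compressed. Here log2 was taken; values were neither normalised again nor filtered. The platform annotation named 34958 probe sets for 1 gene, 932 for several and 9211 for none, and probe sets of the latter kinds were left out. Per gene the probe set with the highest mean over all arrays was used, which gave 18194 genes. Of 64 control probe sets the 13 that carry a gene symbol were kept, since Gapdh has no other. Populations were compared with limma 3.58.1 in R 4.3.3 (lmFit with a mean per population over all 12 arrays, 6 contrasts, eBayes, two-sided, Benjamini-Hochberg adjustment over all genes); the procedure was tested on simulated data. The array data have no read depth, and the number of arrays limits the precision. Members with a called difference of at least 1 log2 unit are given on every array or by range, and of each list of further genes up to 4 called genes with the largest difference are named. The members and lists were chosen with earlier results of these data known. Alternatives were another normalisation, another probe set per gene, a filter on low genes, the replicate number as a block, fewer samples in the fit and leaving out each array; leaving out control probe sets was added after seeing the data. Protein sequences were not analysed here.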

Additional observations from a re-analysis of the deposited data

How the results depend on the processing

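Of the 102 called differences of members 61 kept direction and call under every alternative and 8 changed sign under at least 1, and of the 84 not called 60 stayed so throughout; changes of sign came from the choice of probe set. Leaving out 1 array at a time gave 2 to 7 called members for MPP against HSC, 17 to 18 for PreMegE against HSC, 16 to 23 for PreMegE against MPP, and 14 to 20, 16 to 19 and 18 to 20 for CD4+ T cells against HSC, MPP and PreMegE. Without HSC replicates 2 and 3, MPP against HSC had 3 called. Counting differences of at least 1 alone left 1, 10 and 11 members for MPP against HSC, PreMegE against HSC and PreMegE against MPP. On the second brightest probe set, which exists for 19 members, 3, 11, 11, 12, 11 and 10 members were called in the 6 comparisons in the order given above, where the probe sets used called 2, 13, 16, 15, 12 and 13 of those 19, and 2, 8, 9, 10, 9 and 8 were called by both in the same direction. With the replicate number as a block (replicate block) the counts were 4, 19, 21, 18, 18 and 21. Whether the numbers pair the arrays cannot be told from the values. Of 15 same-numbered pairs 3 correlated above 0.1 (range -0.12 to 0.41), and 6 of 11 arrays correlated best with their own number. Quantile and loess normalisation moved the median of all genes by less than 0.1. For MPP against HSC they called Ldha lower (-0.45 and -0.44) and lost Hif1a (adjusted p = 0.0607 and 0.0642), and loess lost Pkm (0.0555), so that 4 higher and 1 lower (quantile) and 3 higher and 1 lower (loess) were called in place of 5 higher. On the second brightest probe set the following differences had the opposite sign. PreMegE minus HSC was 0.71 for Pfkfb3, 0.27 for Pfkp, -0.58 for Pklr, -0.02 for Slc16a1, 0.11 for Epas1 and 0.09 for Tigar. PreMegE minus MPP was 0.69 for Pfkfb3, 0.37 for Pfkp, -0.27 for Pklr, -0.72 for Arrdc4, -0.05 for Foxo3, 0.74 for Meis1 and -0.49 for Ndrg1. CD4+ T cells minus HSC was 0.34 for Prps2, -0.18 for Tigar and 0.27 for Vegfa; minus MPP it was 1.20 for Pdk1, 1.04 for Pfkfb3 and -0.42 for Tigar; minus PreMegE it was -0.28 for Aldoc, 0.25 for Pklr, -0.03 for Epas1, 0.91 for Siah2, -0.27 for Tigar and 0.39 for Vegfa. MPP minus HSC was 0.27 for Arrdc4. With the mean of all probe sets PreMegE minus MPP was 0.36 for Meis1, CD4+ T cells minus MPP 1.08 for Pdk1 and CD4+ T cells minus HSC 0.13 for Prps2. Without probe sets that can match several transcripts Ndrg1 was -0.74 in PreMegE minus MPP and 0.14 in MPP minus HSC. The cause of these changes was not tested.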
